A study of Mus musculus with 8 samples.

Results

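Transcripts of the sarcoplasmic reticulum calcium system were compared in the left ventricle of low salt and normal salt mice. The system was represented by 10 genes, Ryr2, Casq2, Casq1, Trdn, Hrc, Jph2, Atp2a2, Pln, Sln and S100a1, taken as every non-control probe that carries one of these names in the array design. That gave 14 probes of 39429 non-control probes, and all 10 genes were among the 18250 genes tested. The animals were male C57Bl/6j mice, an inbred strain with no genetic modification named in the labels, and each of the 8 numbered samples, which the labels call biological replicates, was taken as one mouse. The 4 low salt mice received food with 0.05% sodium for 8 weeks, from 8 to 16 weeks of age. The 4 normal salt mice received food with 0.4% sodium over the same weeks. Septum, free wall and apex of the ventricle were homogenised together, so every value is an average over the cell types of that wall. Each of the 4 arrays carried 2 mice of the same diet: mice 1 and 3 were labelled with Cy3, mice 2 and 4 with Cy5, mice 1 and 2 shared an array and mice 3 and 4 another. Array and diet are therefore nested, and the position of an array on the slide cannot be told apart from the diet.

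Between beats, heart muscle cells hold calcium in the sarcoplasmic reticulum, bound mainly to calsequestrin. A small entry of calcium through the surface membrane opens the ryanodine receptor, the stored calcium leaves through it, and the cell contracts. Relaxation follows as the pump SERCA2, restrained by the small membrane proteins phospholamban and sarcolipin, returns calcium to the store. In rodents phospholamban is the main restraint in the ventricle and sarcolipin is best known from the atria.

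The probes decide which transcript form was read, and the sequences of the probes that separate or join forms are given here. Trdn, Atp2a2 and S100a1 had more than one probe. Of the 3 Trdn probes, the array design lists one under a cDNA named cardiac triadin isoform 2 and not under the RefSeq transcript, one under both, and one under the RefSeq transcript and not under that cDNA. All letters are 5′ to 3′ on the strand of the transcript, and positions are those of the array design on mm9.
Trdn, cardiac isoform 2 probe: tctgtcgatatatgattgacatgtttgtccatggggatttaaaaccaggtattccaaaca
Trdn, shared probe: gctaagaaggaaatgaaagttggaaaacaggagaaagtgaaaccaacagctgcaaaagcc
Trdn, RefSeq form probe: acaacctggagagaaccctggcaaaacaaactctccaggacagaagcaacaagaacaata
These lie on the plus strand at chr10:32919981-32920040, chr10:32915796-32915855 and chr10:33194264-33194323, in the order printed. For Atp2a2 the design lists a probe at chr5:122903704-122903763 under the mRNA of transcript variant 2 and not the other RefSeq mRNA, and the probe below, at chr5:122910660-122910719 on the minus strand, under both.
Atp2a2, both variants: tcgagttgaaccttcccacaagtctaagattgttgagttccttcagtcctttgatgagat
The S100a1 probe used for the gene, below, lies at chr3:90315191-90315250 on the minus strand, and its other probe lies nearer the 3′ end of the gene at chr3:90314959-90315018.
S100a1, inner probe: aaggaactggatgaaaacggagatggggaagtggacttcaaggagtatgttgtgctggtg
The Casq1 probe is printed because it had the weakest signal of the genes' chosen probes against its own background. Its 60 bases span 1504 bases of the genome, chr1:174140602-174142105 on the minus strand, so it does not lie in one unbroken stretch.
Casq1: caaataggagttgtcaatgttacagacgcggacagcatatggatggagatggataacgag
The remaining genes had a single probe each, at chr13:11645812-11645871 for Ryr2, chr3:101949827-101949884 for Casq2, chr7:52594281-52594340 for Hrc, chr2:163163526-163163585 for Jph2, chr10:53064944-53065003 for Pln and chr9:53701574-53701633 for Sln. Exons and untranslated regions were not assigned to the probes.

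Values are log2 normalised intensities, and a difference is low salt minus normal salt in log2 units. A probe's level depends on its own hybridisation, so no probe is set against another in level. The median spot of a sample had an intensity of 116 to 147 and a background of 15.5 to 33.5, and 53.0% to 66.3% of spots stood well above background. All 112 readings of the 14 probes were well above background and 0 were saturated, while 2 were flagged by the scanner software and left out. Beside the tissue label, 12 genes listed as ventricular cardiomyocyte markers were read, Myl2, Myl3, Myh6, Tnnt2 and Actc1 among them. All 12 were well above background in every mouse. Detection alone does not show how much atrial muscle a sample held.

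None of the 10 genes passed the test for diet. In limma's model with Benjamini-Hochberg adjustment over all genes, 0 of 10 had an adjusted p under 0.05, against 0.789% of all genes tested (144 of 18250, with 137 higher, or 0.751%, and 7 lower, or 0.0384%, on low salt). Adjusted p ran between 0.256 for Casq2 and 0.980 for S100a1. At an unadjusted p under 0.05 there was 1 of 10, Casq2, against 11% of all genes. The chosen probes of all 10 genes lay where the local trend on the slide differed between diets by no more than 0.1. A fit on such parts of the slide alone called 2 of 16376 genes, so 0.789% is a generous yardstick for them. The sign of the difference was negative for 8 of the 10 genes, against 47.5% of all genes, and the median difference was -0.14, against 0.012 over all genes. Not all of these signs were stable. Atp2a2, Pln, Hrc and Jph2 turned positive when a single array was left out, and Casq1 in the Cy5 mice alone. In these bulk samples fewer heart muscle cells and less RNA per cell cannot be told apart. Setting the mouse number as a block in place of dye left 0 of the 10 genes called, with adjusted p between 0.140 and 0.950, while the count over all genes became 231, which is 1.27%.

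**Figure D1:**
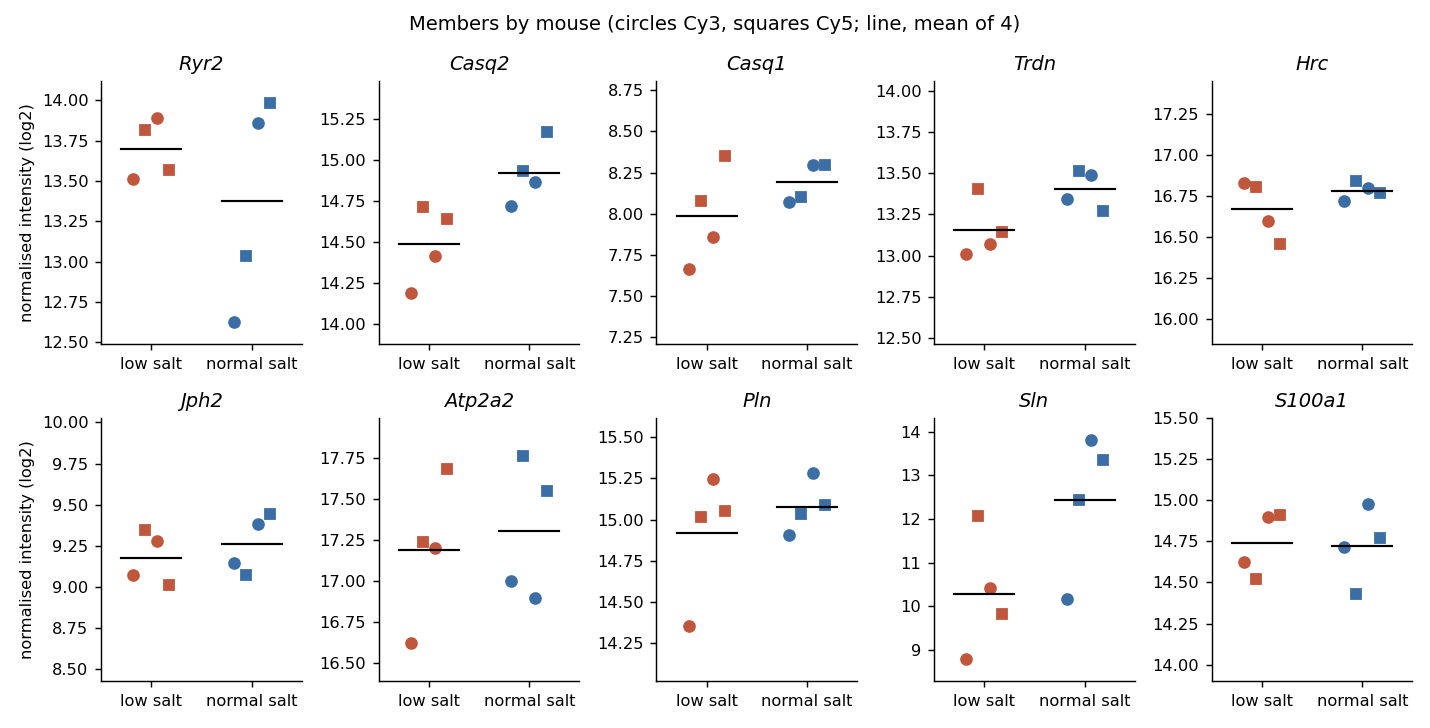
Normalised log2 intensity of the 10 genes in each mouse, low salt at left and normal salt at right in every panel, with circles for Cy3, squares for Cy5 and a line at the mean of 4 mice; each panel has its own vertical axis. Casq2 is the gene whose low salt points all lie below its normal salt points, and Sln spans 5.03 log2 units.

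The release channel was measured by Ryr2, which encodes the cardiac ryanodine receptor. Its level was 13.51, 13.82, 13.89 and 13.57 in low salt mice 1 to 4, against 12.62, 13.03, 13.86 and 13.98 in normal salt mice 1 to 4. The low salt mice lay close together, and all 4 fell inside the span of the normal salt mice, whose first 2 were low and whose last 2 were high. Low salt averaged 13.70 ± 0.18 and normal salt 13.38 ± 0.65 (SD, n = 4 each). The difference of 0.32 had a standard error of 0.34, a 95% interval of -0.45 to 1.09 and an adjusted p of 0.740. Within the normal salt group the array of mice 3 and 4 exceeded that of mice 1 and 2 by 1.09, while the same difference in the low salt group was 0.065. With the array of normal salt mice 1 and 2 left out, the diet difference was -0.23, so its sign rests on that array.

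Casq2 encodes cardiac calsequestrin, the protein that binds most of the calcium inside the store. It read 14.19, 14.71, 14.42 and 14.64 in low salt mice 1 to 4, against 14.72, 14.93, 14.86 and 15.17 in normal salt mice 1 to 4. Every low salt mouse lay below every normal salt mouse, although the highest low salt value and the lowest normal salt value were nearly level. Of the 10 genes it was the 1 whose groups did not overlap, against 12.9% of all genes, with 4.95% of all genes wholly below normal salt on low salt and 7.99% wholly above. Means were 14.49 ± 0.24 for low salt and 14.92 ± 0.19 for normal salt (SD, n = 4 each), a ratio of 0.743. That difference of -0.43 (standard error 0.13, 95% interval -0.72 to -0.14) had an unadjusted p of 0.00927 and an adjusted p of 0.256, and did not pass. It was -0.49 between the Cy3 mice and -0.37 between the Cy5 mice, and leaving out any one mouse kept it between -0.48 and -0.36. Leaving out one array gave -0.52 to -0.33, and at -0.33, without normal salt mice 3 and 4, the unadjusted p was 0.0697. With no normalisation between arrays that p was 0.0920. Casq2 passed in a single alternative, the model that takes the 2 mice of an array as unrelated, with an adjusted p of 0.0461 in limma, where 3.45% of all genes were called; with mouse number as a block its adjusted p was 0.140. The 12 ventricular markers had a median difference of -0.077, with 9 lower, 3 higher and 0 called, and their part in the Casq2 difference was not tested. The single markers differed by between -0.58, for Ttn, and 0.31, for Irx4.

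Casq1 encodes the calsequestrin that predominates in fast skeletal muscle. Its signal was weak here, with raw intensities of 170 to 400 over a local background of 15.5 to 35, or 6.86 to 19.1 times background. Normalised values were 7.66, 8.08, 7.86 and 8.35 in low salt mice 1 to 4, against 8.07, 8.10, 8.29 and 8.30 in normal salt mice 1 to 4. The highest value of all belonged to a low salt mouse, and the groups overlapped. The difference was -0.20 (standard error 0.18, 95% interval -0.63 to 0.22, adjusted p 0.693 in limma). It was -0.42 between the Cy3 mice and 0.015 between the Cy5 mice. Leaving out one mouse or array gave -0.32 to -0.088, the smallest with the array of low salt mice 1 and 2 absent, and -0.12 with normal salt mouse 3 absent. Of 11 other skeletal muscle markers, 5 passed the filter on dim probes, with a median difference of 0.14 and 0 called. The fast myosins Myh1, Myh2 and Myh4 were among the 6 that did not pass it.

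Trdn encodes triadin, which anchors calsequestrin to the ryanodine receptor. On the cardiac isoform 2 probe it read 13.01, 13.41, 13.07 and 13.14 in low salt mice 1 to 4, against 13.34, 13.51, 13.49 and 13.27 in normal salt mice 1 to 4. Low salt mice 1, 3 and 4 had values under the whole normal salt span, and low salt mouse 2 fell within it. Low salt averaged 13.16 ± 0.18 and normal salt 13.40 ± 0.12 (SD, n = 4 each), and the difference of -0.25 (standard error 0.17, 95% interval -0.64 to 0.14) had an adjusted p of 0.604 in limma. It was -0.38 between the Cy3 mice and -0.12 between the Cy5 mice, and -0.16 without normal salt mouse 3.

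The shared Trdn probe was read in 2 low salt mice only, since the spot was flagged as non-uniform on the array of low salt mice 1 and 2. It gave 12.47 in low salt mouse 3 and 12.38 in low salt mouse 4, against 12.28, 12.14, 13.25 and 12.91 in normal salt mice 1 to 4. Both low salt values fell between the arrays of the normal salt group, which stood 0.87 apart. The difference was -0.22 with a 95% interval of -1.02 to 0.58. This was also the 1 member probe in a region of the slide where the local trend differed between diets by more than 0.1 (-0.13 here); of all genes, 12.7% had their probe in such a region and none of the 10 chosen probes did.

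The RefSeq form probe of Trdn was dim, and in its weakest reading stood 3.76 times over its local background. It read 7.37, 7.13, 7.26 and 7.02 in low salt mice 1 to 4, against 7.41, 7.38, 7.17 and 7.10 in normal salt mice 1 to 4. The groups overlapped over nearly their whole span. The difference was -0.070 (95% interval -0.36 to 0.22). The log2 ratio of this probe to the cardiac isoform 2 probe, centred on its mean over the 8 mice, averaged 0.090 ± 0.29 on low salt and -0.090 ± 0.16 on normal salt (SD, n = 4 each), a difference smaller than the spread within low salt.

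Hrc encodes the histidine-rich calcium-binding protein of the store, which also binds triadin. It read 16.83, 16.80, 16.60 and 16.46 in low salt mice 1 to 4, against 16.72, 16.84, 16.80 and 16.77 in normal salt mice 1 to 4. Normal salt mice were tightly grouped, and low salt mice 3 and 4 lay below them while mice 1 and 2 lay among them. Hrc averaged 16.67 ± 0.18 on low salt and 16.78 ± 0.052 on normal salt (SD, n = 4 each), and differed by -0.11 (standard error 0.13, 95% interval -0.40 to 0.18, adjusted p 0.767 in limma). The array of low salt mice 3 and 4 stood 0.29 below that of low salt mice 1 and 2, and without it the diet difference was 0.035.

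Jph2 encodes junctophilin 2, which ties the store to the surface membrane so that calcium entry and release sites face each other. Levels were 9.08, 9.35, 9.28 and 9.01 in low salt mice 1 to 4, against 9.15, 9.07, 9.38 and 9.45 in normal salt mice 1 to 4. The groups were interleaved. Their difference of -0.083 (standard error 0.17, 95% interval -0.48 to 0.31, adjusted p 0.875 in limma) turned to 0.069 once the array of normal salt mice 3 and 4 was left out.

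Uptake was measured first through Atp2a2, which encodes the pump SERCA2. Its variant 2 probe read 16.62, 17.24, 17.20 and 17.68 in low salt mice 1 to 4, against 17.00, 17.76, 16.90 and 17.55 in normal salt mice 1 to 4. The Cy5 mouse exceeded the Cy3 mouse on each of the 4 arrays, and the diets overlapped within either dye. Low salt averaged 17.19 ± 0.43 and normal salt 17.30 ± 0.42 (SD, n = 4 each), and the difference with dye in the model was -0.12 (standard error 0.17, 95% interval -0.50 to 0.27, adjusted p 0.821 in limma). With the array of low salt mice 1 and 2 left out it was 0.14.

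The Atp2a2 probe of both variants gave 12.55, 13.11, 13.61 and 13.54 in low salt mice 1 to 4, against 13.39, 13.52, 13.55 and 13.61 in normal salt mice 1 to 4. Mice 1 and 2 of low salt were the lowest of the 8, and mice 3 and 4 of low salt stood within the normal salt span or level with its top. The difference was -0.31 with a standard error of 0.25 and an adjusted p of 0.659 over all 23236 probes, of which 0.813% were called. Within low salt the array of mice 3 and 4 exceeded the array of mice 1 and 2 by 0.74 on this probe and by 0.51 on the variant 2 probe. In the normal salt group that step was 0.13 on the probe of both variants and -0.16 on the variant 2 probe.

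**Figure D2:**
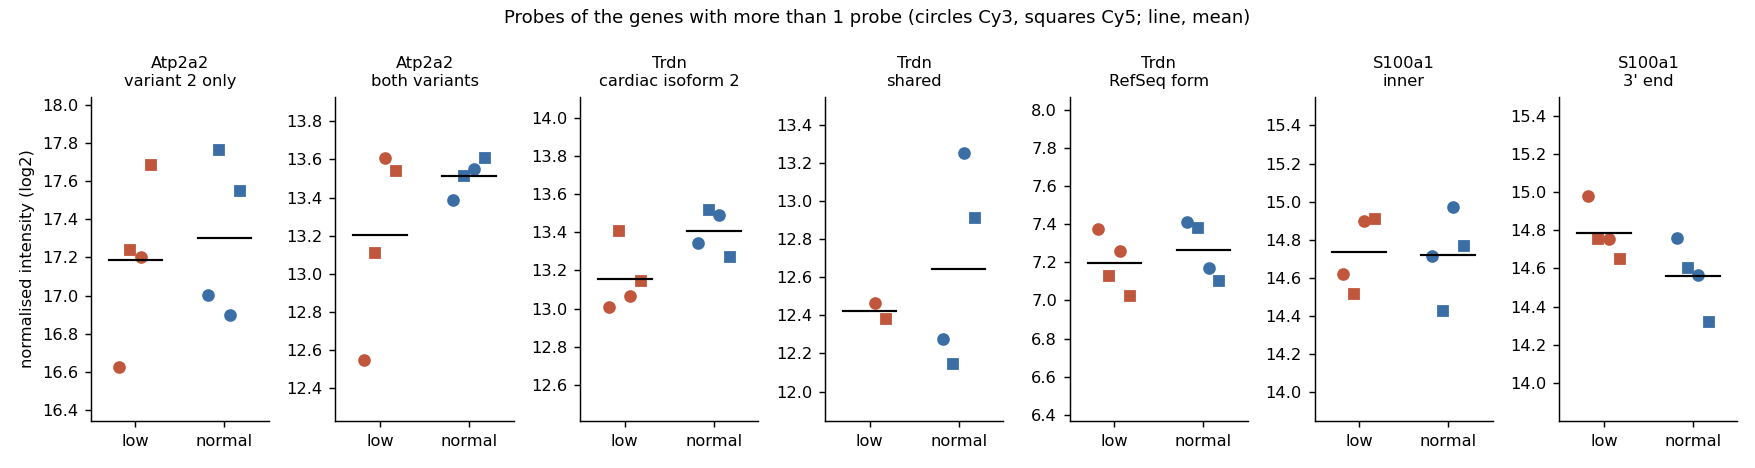
Normalised log2 intensity in each mouse for the 7 probes of Atp2a2, Trdn and S100a1, with low salt at left and normal salt at right in each panel, circles for Cy3, squares for Cy5 and a line at the mean; each panel has its own vertical axis. Low salt mice 1 and 2 have no point on the shared Trdn probe, and the diets overlap on all 7 probes.

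Pln encodes phospholamban, which holds SERCA2 back until it is phosphorylated. It read 14.36, 15.01, 15.25 and 15.05 in low salt mice 1 to 4, against 14.90, 15.04, 15.28 and 15.09 in normal salt mice 1 to 4. Low salt mouse 1 was the lowest of the 8 and the other 3 low salt mice lay among the normal salt mice. Means were 14.92 ± 0.39 on low salt and 15.08 ± 0.16 on normal salt (SD, n = 4 each), and the difference of -0.16 (standard error 0.27, 95% interval -0.79 to 0.47) had an adjusted p of 0.845 in limma. Without low salt mouse 1 it was 0.031. The log2 ratio of Pln to Atp2a2, centred over the 8 mice, averaged -0.023 ± 0.28 on low salt and 0.023 ± 0.48 on normal salt (SD, n = 4 each) on the variant 2 probe, on which Cy5 and Cy3 mice also differed. Against the Atp2a2 probe of both variants the same ratio averaged 0.076 ± 0.17 on low salt and -0.076 ± 0.12 on normal salt (SD, n = 4 each). That is a difference of 0.15, close to the spread within a diet, and the ratio itself was not tested.

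Sln encodes sarcolipin, a small inhibitor of the same pump, and was the most variable of the 10 genes. It read 8.79, 12.07, 10.41 and 9.83 in low salt mice 1 to 4, against 10.17, 12.42, 13.82 and 13.36 in normal salt mice 1 to 4. Normal salt mice 2, 3 and 4 were higher than every low salt mouse, while normal salt mouse 1 was lower than mice 2 and 3 of low salt. The 8 mice spanned 5.03 log2 units, a 32.6-fold range, and 1.47% of all genes spanned 2 or more. Raw intensity of the spot ran from 320 to 13524 and was at least 24.6 times background in every mouse. Low salt averaged 10.28 ± 1.37 and normal salt 12.44 ± 1.62 (SD, n = 4 each), a ratio of 0.223.

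The Sln difference of -2.16 had a standard error of 1.25 and a 95% interval of -5.02 to 0.69, with an unadjusted p of 0.120 and an adjusted p of 0.547 in limma. It did not pass, and the interval is the widest of the 10. It was -2.39 between the Cy3 mice and -1.94 between the Cy5 mice. Leaving out one mouse moved it between -2.81 and -1.56. Leaving out one array moved it between -3.31, without normal salt mice 1 and 2, and -1.02, without normal salt mice 3 and 4. With mouse number as a block the unadjusted p was 0.00812 and the adjusted p 0.155. Within normal salt the array of mice 3 and 4 exceeded that of mice 1 and 2 by 2.29, which is more than the difference between the diets.

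Sln was the 1 of the 10 genes that ranged over 2 or more log2 units, and the genes nearest to it in profile were therefore sought among all genes tested. Likeness was the root-mean-square distance between profiles centred on their own mean over the 8 mice, and Sln itself had a root-mean-square deviation of 1.69. Nearest was Myl4, the atrial essential myosin light chain, at a distance of 0.26. Mybphl, a myosin-binding protein H-like gene, followed at 0.59, Myl7, the atrial regulatory myosin light chain, at 0.71, Sbk3, a predicted kinase, at 0.87, and an unnamed transcript at 0.96.

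Myl4 read 11.01, 13.99, 12.35 and 12.42 in low salt mice 1 to 4, against 12.38, 14.51, 15.47 and 15.27 in normal salt mice 1 to 4. Its high mice and its low mice were those of Sln, and the centred log2 ratio of Sln to Myl4 stayed within 0.94 over the 8 mice. Myl7 read 8.56, 11.34, 9.75 and 9.71 in low salt mice 1 to 4, against 9.38, 11.26, 11.51 and 11.51 in normal salt mice 1 to 4. Diet differences were -1.97 for Myl4 (adjusted p 0.503 in limma) and -1.07 for Myl7 (adjusted p 0.655), and neither passed. The Myl7 probe lay where the local trend on the slide differed between diets by 0.25. With that trend subtracted the Myl7 difference was -1.32.

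Atrial muscle markers were summed as a list that includes Myl4 and Myl7, the genes just named for their likeness to Sln. Of 9 atrial markers fixed without Sln, 7 passed the filter on dim probes and 0 were called, 6 of the 7 were lower on low salt, and the median difference was -0.35. The mean level of the 7 markers ran from 9.76 to 10.76 over the low salt mice and from 9.94 to 11.35 over the normal salt mice. Centred over the 8 mice it was -0.79, 0.21, -0.44 and -0.13 in low salt mice 1 to 4, against -0.61, 0.20, 0.80 and 0.75 in normal salt mice 1 to 4. The 5 markers other than Myl4 and Myl7 stood at -0.26, -0.0044, -0.27 and 0.15 in low salt mice 1 to 4, against -0.45, -0.11, 0.49 and 0.46 in normal salt mice 1 to 4. In the mean without those genes normal salt mice 3 and 4 were again the highest, as for Sln. Singly, both were highest for Dkk3 and Stard10 only. Nppa was higher in low salt mouse 1 than in normal salt mouse 4. Kcna5 stood at 8.44 and 8.48 in normal salt mice 3 and 4, below normal salt mouse 2 at 8.77. Gja5 stood at 8.01 and 8.17 in them, below normal salt mouse 1 at 8.25. The lowest mean was that of normal salt mouse 1, whereas Sln was lowest in low salt mouse 1. The 5 markers differed in this: Nppa and Dkk3 were lowest in normal salt mouse 1. Stard10 and Gja5 were lowest in low salt mouse 1, as Sln was, and Kcna5 in low salt mouse 3. The Gja5 probe, like that of Myl7, lay in an uneven part of the slide, where the local trend differed between diets by 0.19. Bmp10 and Dhrs9 did not pass the filter. Nppa, the atrial natriuretic peptide gene that the ventricle can also express, differed by 0.39, in the opposite direction to Sln (adjusted p 0.786 in limma). It read 16.09, 15.50, 15.52 and 15.76 in low salt mice 1 to 4, against 14.25, 14.89, 16.14 and 16.03 in normal salt mice 1 to 4. Within normal salt, mouse 1 was lowest and mice 3 and 4 highest for Nppa as for Sln. Within low salt, mouse 1 was highest for Nppa and lowest for Sln. The part of atrial tissue in the Sln values was not tested.

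**Figure D3:**
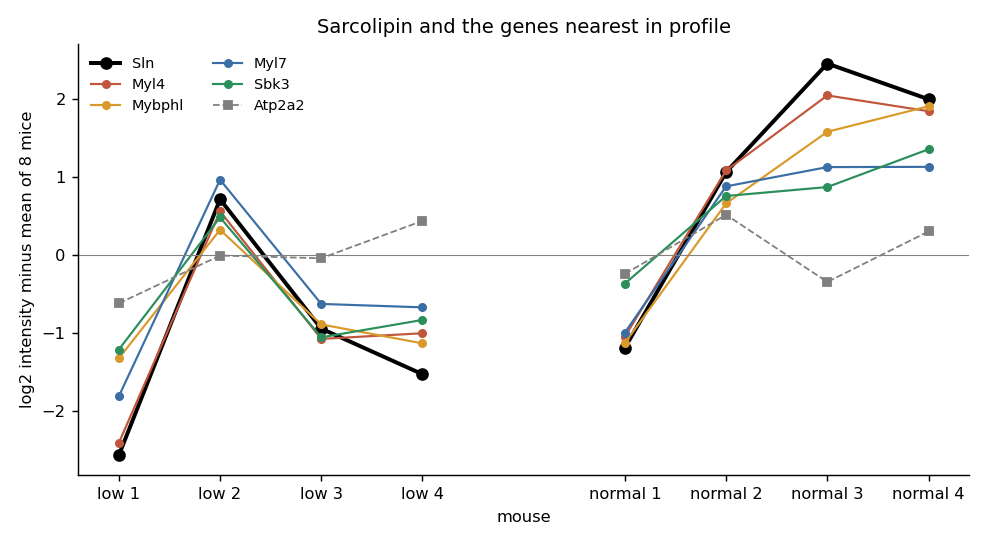
Log2 intensity minus the mean of the 8 mice for Sln, for the 4 named genes nearest to it in profile (Myl4, Mybphl, Myl7 and Sbk3) and for Atp2a2 as another gene of calcium uptake, by mouse, low salt at left. Within each diet Sln and these 4 genes were lowest in mouse 1, and over the 8 mice they were highest in normal salt mice 3 and 4. Atp2a2 keeps to a narrower band.

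S100a1 encodes a small calcium sensor that binds both SERCA2 and the ryanodine receptor. The inner probe read 14.62, 14.52, 14.90 and 14.91 in low salt mice 1 to 4, against 14.72, 14.43, 14.97 and 14.77 in normal salt mice 1 to 4. The groups covered almost the same span, with the array of mice 3 and 4 above that of mice 1 and 2 by 0.33 on low salt and by 0.30 on normal salt. The difference was 0.015 (standard error 0.16, 95% interval -0.34 to 0.37, adjusted p 0.980 in limma), and its sign changed when low salt mouse 4 (-0.055) or normal salt mouse 2 (-0.047) was left out.

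The S100a1 probe nearer the 3′ end gave 14.98, 14.76, 14.75 and 14.65 in low salt mice 1 to 4, against 14.76, 14.60, 14.57 and 14.32 in normal salt mice 1 to 4. Here the order of the arrays was the reverse, with mice 3 and 4 below mice 1 and 2 by 0.17 on low salt and by 0.24 on normal salt. The diet difference was 0.22 (95% interval -0.040 to 0.49, adjusted p 0.508 over all probes). Both probes left the diets overlapping, but they did not rank the mice alike.

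**Figure D4:**
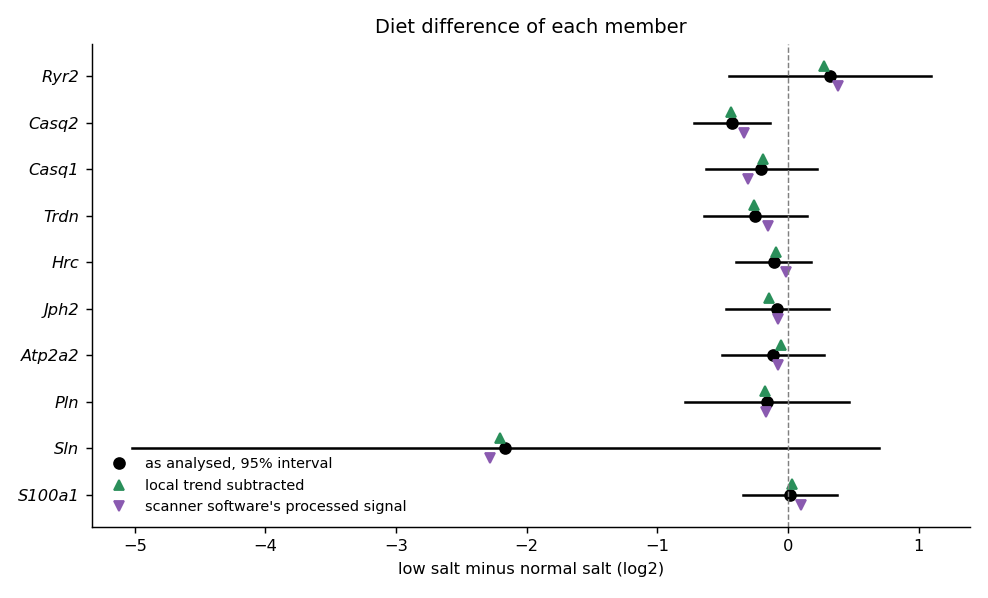
Difference between diets in log2 units, low salt minus normal salt, for each of the 10 genes: a black point with its 95% interval, an upward triangle after the local trend over the slide was subtracted, and a downward triangle from the scanner software's processed signal. The interval covers 0 for 9 genes and lies below 0 for Casq2, and Sln has the widest interval, -5.02 to 0.69.

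Arrays within a diet differed as much as the diets did for most of these genes. In 8 of the 10 genes at least one diet's pair of arrays stood farther apart than the diets. Casq2 and Trdn were the exceptions: for Casq2 the arrays stood 0.078 apart on low salt and 0.19 on normal salt, against 0.43 between diets. The count of 8 takes the larger of a gene's array differences, and each array mean rests on fewer mice than a diet mean. It therefore favours the arrays. Whether these genes differ from all genes in this count was not tested. Over all genes the median size of the array difference was 0.15 on low salt and 0.12 on normal salt. Ranges over the 8 mice were above the all-gene median of 0.51 for 8 of the 10 genes. The diet difference had the same sign in the Cy3 and the Cy5 mice for 8 of the 10 genes, against 75.2% of all genes, and Casq1 and S100a1 were the exceptions.

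**Figure D5:**
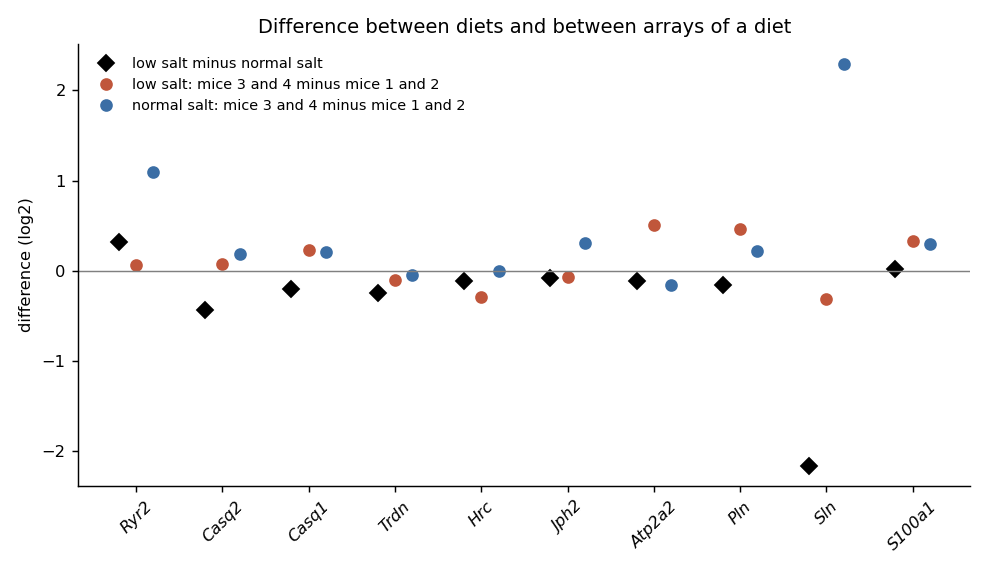
Log2 difference between the diets (black diamonds, low salt minus normal salt) and between the arrays of a diet (mice 3 and 4 minus mice 1 and 2, red for low salt, blue for normal salt) for each gene. Ryr2 at 1.09 and Sln at 2.29 have the largest array differences, both in normal salt, and Casq2 has a diet difference beyond both of its array differences.

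The wider calcium machinery was described by 55 further genes for surface calcium channels and exchangers, calmodulin and its kinases, protein kinase A and its anchors, phosphatases, inositol trisphosphate receptors, store-operated entry, other pumps and the mitochondrial uniporter. Of these, 51 were tested, Strit1 had no probe by that name, and Ppp1r1a, Ryr1 and Mcu were too dim. None was called (0 of 51, against 0.789% of all genes), 4 had an unadjusted p under 0.05, against 11% of all genes, and the median difference was -0.024. The diets did not overlap for 6 of the 51, with 2 below and 4 above on low salt, against 12.9% of all genes. The 4 with the smallest p follow.

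Itpr2 encodes an inositol trisphosphate receptor, a second kind of calcium release channel. It read 8.99, 8.77, 9.83 and 9.81 in low salt mice 1 to 4, against 10.30, 10.34, 10.21 and 9.94 in normal salt mice 1 to 4. No low salt value reached the normal salt span, and mice 1 and 2 of low salt were the lowest. The difference was -0.85 (standard error 0.27, adjusted p 0.289 in limma). With the array of low salt mice 3 and 4 left out it was -1.32 with an adjusted p of 0.0156, in a fit that called 5.86% of all genes. With the array of low salt mice 1 and 2 left out it was -0.38 with an adjusted p of 0.485.

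Akap6, the anchor that holds protein kinase A near the ryanodine receptor and the nuclear envelope, read 10.69, 10.96, 10.79 and 10.84 in low salt mice 1 to 4, against 10.40, 10.58, 10.53 and 10.66 in normal salt mice 1 to 4. All low salt values lay above all normal salt values, with a difference of 0.28 (adjusted p 0.390 in limma). Mrln encodes myoregulin, a micropeptide that inhibits the calcium pump in skeletal muscle. Its level was 8.10, 7.93, 7.86 and 8.06 in low salt mice 1 to 4, against 7.68, 7.79, 7.51 and 7.56 in normal salt mice 1 to 4, again without overlap, and it differed by 0.35 (adjusted p 0.398). The Mrln signal was weak, as that of Casq1 was, though well above background in every mouse. Camk2d encodes the main cardiac calmodulin-dependent kinase, which phosphorylates both the ryanodine receptor and phospholamban. Its level was 12.33, 12.48, 12.51 and 12.64 in low salt mice 1 to 4, against 11.87, 12.07, 12.31 and 12.39 in normal salt mice 1 to 4, which overlapped slightly, and the difference was 0.33 (adjusted p 0.429).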

How the data were processed

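Left ventricle RNA of 8 mice was measured on 4 two-colour Agilent arrays of 1 slide. The deposited scanner files hold the intensity of each spot and its local background per channel, read with Agilent Feature Extraction 11.5.1.1 per the file headers. The deposited value table, whose unit is a ratio, was not used, since the match of its rows to spots was not established. The background-subtracted median signal of the spot with the same running number was divided by each table value. The most common rounded quotient held for no more than 0.375% of a column's values. A transformed or normalised table could also give so low a share, so this does not show that the rows follow another order. Each sample was read in its own dye.

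In limma 3.58.1 (R 4.3.3, statmod 1.5.0), the mean signal was background-corrected by normexp with an offset of 50, loess was applied within arrays and Aquantile between them, and log2 intensities were kept for each channel. A background with an outlier flag took the channel's median. Flagged spots were left out and control spots had weight 0. A probe had to stand well above background in 4 or more samples, and the brightest probe stood for its gene. The model held diet and dye, with array as a random block (correlation 0.565), empirical Bayes moderation, 2-sided tests and Benjamini-Hochberg adjustment over all 18250 genes at 0.05; probe values that did not come from the brightest probe were adjusted over all 23236 probes. The code was tested on simulated data. Precision is limited by the small number of arrays.

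Genes were named by a rule: all 10 members with every probe, the 4 calcium handling genes with the smallest p, and the 5 genes nearest in profile to a member that ranged over 2 log2 units or more. The members and lists were chosen with earlier results of these data known. Nppa, Dkk3, Stard10, Gja5, Kcna5, Ttn and Irx4 were named after their values were seen. The local trend on the slide was the median deviation within 12 rows and 6 columns on each side.

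Mouse numbers recur in both diets. Deviations from group means of same-numbered mice correlated across genes at 0.29, 0.14, 0.15 and 0.19 for mice 1 to 4. With dye left in, the numbers thus met the rule used for pairing, which asks for more than 0.1. Same-numbered mice also share a dye. With dye removed the correlations were 0.081, 0.016, 0.11 and -0.014, and only mouse 3 met the rule. Nothing in the labels says that a number marks a litter or a day. Alternatives covered the background correction, both normalisations, the filter on dim probes, the choice of probe, the array and replicate blocks, each dye alone, the local trend, and each mouse or array left out.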

Additional observations from a re-analysis of the deposited data

How the results depend on the processing

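Over 26 alternatives the count of member genes called stayed at 0 except with array left out of the model, where it was 1: Casq2, with the same difference of -0.43 and an adjusted p of 0.0461, in a fit that called 3.45% of all genes. Sln, Casq2 and Trdn kept a negative sign under all 26. Signs turned, with none called, for Casq1 (0.015 in Cy5 alone) and S100a1 (-0.086 in Cy3 alone) and for 6 genes when a mouse or an array was left out. Leaving out one mouse or array gave -0.23 to 0.87 for Ryr2 (the lowest with normal salt mice 1 and 2 absent), -0.37 to 0.14 for Atp2a2 (the highest with low salt mice 1 and 2 absent), -0.39 to 0.070 for Pln (positive with low salt mouse 1, or its array, absent), -0.25 to 0.035 for Hrc (the highest with low salt mice 3 and 4 absent), -0.24 to 0.069 for Jph2 (the highest with normal salt mice 3 and 4 absent) and -0.15 to 0.19 for S100a1 (negative in 4 such settings). It gave -0.52 to -0.33 for Casq2, -0.35 to -0.16 for Trdn, -0.32 to -0.088 for Casq1 and -3.31 to -1.02 for Sln. The cause was not tested.

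Of the calcium handling list, 2 were called in place of 0 when every probe was tested (among them Calm3 at 0.98, on a probe where the local trend differed between diets by 0.31), and 2 with the array of low salt mice 3 and 4 left out (Itpr2 at -1.32 and Camk2g at -0.47, in a fit that called 5.86% of all genes). Leaving out one mouse or array gave 0 to 2.

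The count over all genes, 144, was 33 with the scanner's processed signal, 629 with array left out of the model, 67 with the local trend subtracted and 2 in even parts of the slide alone. It was 0 in limma with no normalisation between arrays (781 at an unadjusted p under 0.05), with each array averaged (1556), in Cy3 alone (1860) and in Cy5 alone (1268). Leaving out one mouse or array gave 52 to 1069, the highest when the array of low salt mice 3 and 4 was absent. With mouse number as a replicate block it was 231, and no member call changed.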
